A study of Mus musculus with 48 samples.

Results

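The 2 mature arms of the mouse miR-22 hairpin, mmu-miR-22-3p and mmu-miR-22-5p, were followed through 48 small RNA libraries of the fetal ovary. They were chosen by name and are 2 of the 563 mature miRNAs in the count table, and both had a listed count in all 48 libraries. The libraries came from wild-type CD1 embryos at embryonic day 13.5, whose early ovaries, freed of mesonephros and pooled in lots of about 80 gonads, were separated with anti-CD15 beads into primordial germ cells (PGC) and early ovary somatic cells (SC). The stated enrichment was 93 to 96% for PGC and over 90% for SC. For the first 13 days of pregnancy the founding females drank DMSO alone at 0.3% v/v (control), or that amount of DMSO with a daily dose of 35 mg/kg of MEHP or 50 mg/kg of VZN. MEHP is a phthalate monoester and VZN is vinclozolin, an anti-androgenic fungicide.

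Every exposure and fraction was sampled in 4 generation classes of 2 libraries each: F1 embryos were exposed in the uterus (1 generation since exposure in the labels), F2 and F2Sy embryos are 2 and F3 embryos 3 generations from it, and F2Sy embryos had the exposed lineage on both parents' sides. This gave 24 groups and 8 libraries for each exposure and fraction. Controls of every class belong to the DMSO lineage. Whether both libraries of a group stem from distinct litters or lots is not stated in the labels, so p-values measure only the spread between libraries, which may be technical.

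miR-22 is a conserved vertebrate miRNA. Its 3p arm, the arm that usually accumulates, is known from human breast cancer cells to repress the estrogen receptor alpha transcript, and from mouse and human cells to act on Tet transcripts. Estrogen receptors are ligand-activated transcription factors. Tet enzymes oxidise methylated cytosine, and mouse Tet1 is needed for meiotic gene expression in female germ cells. The RNA of the receptors and Tet genes was not analysed here.

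The sequences of both arms are shown because the seed, bases 2 to 8 from the 5′ end, sets which transcripts an arm can pair with. They are RefSeq entries on build GRCm38.p6, and the capitals mark the seed.
mmu-miR-22-3p: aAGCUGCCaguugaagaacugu
mmu-miR-22-5p: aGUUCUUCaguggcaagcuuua
Both are 22 bases long. The 3p arm lies at chr11:75463772-75463793 and the 5p arm at chr11:75463734-75463755, both on the plus strand. The seeds differ, and no other of the 1679 mature mouse miRNAs in the RefSeq table shares either of them, so neither arm has a seed relative in that table.

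The hairpin that carries both arms is shown next, with the 2 arms in capitals, the 5p arm first.
Mir22: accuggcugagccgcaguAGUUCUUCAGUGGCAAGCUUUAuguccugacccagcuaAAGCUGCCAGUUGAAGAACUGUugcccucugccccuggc
It covers chr11:75463716-75463810 (95 bases, GRCm38.p6, plus strand). In the GENCODE vM21 annotation of the same build it lies inside exon 2 of the noncoding host gene Mir22hg, so it is exonic, and the same stretch is also exon 2 of 1 transcript of the coding gene Tlcd2. Reads were aligned to another build, mm39, by the submitters' processing notes, and no coordinate was carried over between builds.

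The heptamer that pairs with the 3p seed, GGCAGCT, was searched on the sense strand of the longest 3′ UTR annotated in GENCODE vM21 (GRCm38) for 5 genes, the 2 estrogen receptors and the 3 Tet genes. It occurred at 2 positions in Esr1 (estrogen receptor alpha) and at none in Esr2 (estrogen receptor beta). Tet1 held 2 copies, and Tet2 and Tet3 held 1 each. The first copy in Esr1 and in Tet1 and the copies in Tet2 and Tet3 are printed with the bases before them, in DNA letters and with the heptamer in capitals, as the sites that the 3p seed could pair with.
Esr1: ggggcttgcagtaaaGGCAGCTt
Tet1: ccctacttcagtgctGGCAGCTc
Tet2: aaccgaaagagaataGGCAGCTg
Tet3: gctaggctcagagaaGGCAGCTt
In all 21028 3′ UTRs the heptamer was present in 12.8%, and in UTRs of similar length in 29.8% for Esr1, 42.9% for Tet1, 25.2% for Tet2 and 37.8% for Tet3, so its presence in UTRs as long as these is not rare. The heptamer for the 5p seed, GAAGAAC, was in none of the 5 UTRs and in 10.1% of all. In UTRs of similar length it was in 25.4% for Esr1, 10.1% for Esr2, 40.3% for Tet1, 20.6% for Tet2 and 32.5% for Tet3. A match is a description of letters and not a site in use.

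The libraries held 2932091 to 7946140 listed counts in PGC and 7460018 to 11761591 in SC, with 357 to 409 and 420 to 461 miRNAs listed. PGC libraries were thus shallower. The germ cell list of 7 miRNAs (miR-291a to miR-295 and miR-302 members) was listed in full in all 48 libraries and summed to between 119201 and 226749 counts per 1000000 listed counts (CPM) in PGC and between 2930 and 15283 CPM in SC, which fits the fraction labels. The somatic and mesenchymal list, of which 7 of 8 are in the table, summed to 4240 to 21113 CPM in PGC and 69117 to 163174 CPM in SC. Erythroid markers, with 3 of 5 in the table and miR-451a leading, summed to 961 to 6686 CPM in PGC and 8778 to 86158 CPM in SC, and the endothelial miR-126a-3p measured 2271 to 11495 CPM and 16721 to 30782 CPM. Muscle markers, with 4 of 6 in the table, summed to 978 to 1927 CPM in PGC and 58.6 to 302 CPM in SC. Leukocyte markers summed to 339 to 939 CPM in PGC and 104 to 323 CPM in SC, so both lists were low but higher in PGC. The liver list stayed at or below 821 CPM in every library. Library 2 of VZN PGC F2Sy had the lowest germ cell sum of the PGC libraries and the fewest counts of all 48, and library 1 of MEHP SC F3 had the lowest somatic sum of the SC libraries, so results that rest on them are also given without them. In such bulk libraries fewer cells of a type and less RNA per cell cannot be told apart.

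miR-22-3p was an abundant miRNA of both fractions. Its counts ran from 35594 to 104728, which places it between rank 16 and rank 42 of the miRNAs of a library. The exact 95% binomial interval was within 0.602 to 1.04% of each CPM value. miR-22-5p had 128 to 669 counts, lay between rank 315 and rank 378, and its intervals reached 7.65 to 17.7% of the value. These intervals cover counting error only, because amplified reads that carry no molecular identifier do not stand for separate molecules. The 5p arm made up 0.256% to 0.896% of all miR-22 counts in PGC libraries and 0.407% to 1.22% in SC libraries, so the 3p arm dominated in every one of them.

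By mean level of mmu-miR-22-3p the order of the sets was MEHP PGC, control PGC, VZN PGC, control SC, VZN SC and MEHP SC, while by median control PGC and MEHP SC came first within their fractions. In control PGC the level ran from 7807 to 11128 CPM with a median of 9202, and in MEHP PGC from 7770 to 13180 CPM with a median of 8419. VZN PGC libraries had 6242 to 12139 CPM with a median of 8745. The 3 PGC sets overlapped, and both exposed sets spread more widely than the control set.

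In control SC the level of mmu-miR-22-3p ran from 6975 to 9055 CPM with a median of 7979. MEHP SC libraries had 4672 to 8166 CPM with a median of 7992, and VZN SC libraries had 6214 to 9835 CPM with a median of 7657. The mean levels were 9514 ± 2183 CPM in MEHP PGC, 9346 ± 1016 CPM in control PGC, 8630 ± 1781 CPM in VZN PGC, 8043 ± 803 CPM in control SC, 7669 ± 1178 CPM in VZN SC and 7362 ± 1259 CPM in MEHP SC (SD, n = 8 each). Each neighbouring pair in this order was apart by no more than 0.494 of the pooled SD, so no 2 neighbours differed beyond their spread.

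For mmu-miR-22-5p the 3 SC sets stood above the 3 PGC sets in mean level. Control SC libraries had 48.4 to 64.5 CPM with a median of 57.2, VZN SC libraries 40.9 to 67.2 CPM with a median of 54.0 and MEHP SC libraries 33.0 to 61.5 CPM with a median of 54.2. In PGC the range was 27.5 to 59.1 CPM with VZN, 33.9 to 52.6 CPM with MEHP and 29.5 to 45.7 CPM in controls, with medians of 42.3, 38.1 and 39.6 CPM. Control libraries of the 2 fractions did not overlap, whereas the MEHP and the VZN libraries did. Of the 251 miRNAs tested, 71.3% in controls, 66.9% with MEHP and 63.7% with VZN had fractions that did not overlap.

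The means of mmu-miR-22-5p were 56.5 ± 5.57 CPM in control SC, 53.9 ± 8.45 CPM in VZN SC, 52.3 ± 9.14 CPM in MEHP SC, 43.6 ± 10.7 CPM in VZN PGC, 39.7 ± 6.25 CPM in MEHP PGC and 38.9 ± 5.79 CPM in control PGC (SD, n = 8 each). The widest gap between neighbours, from MEHP SC to VZN PGC, was 0.872 of the pooled SD. The plot of levels by library shows both arms on linear axes, with the PGC sets above the SC sets in mean level for the 3p arm and below them for the 5p arm.

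**Figure D1:**
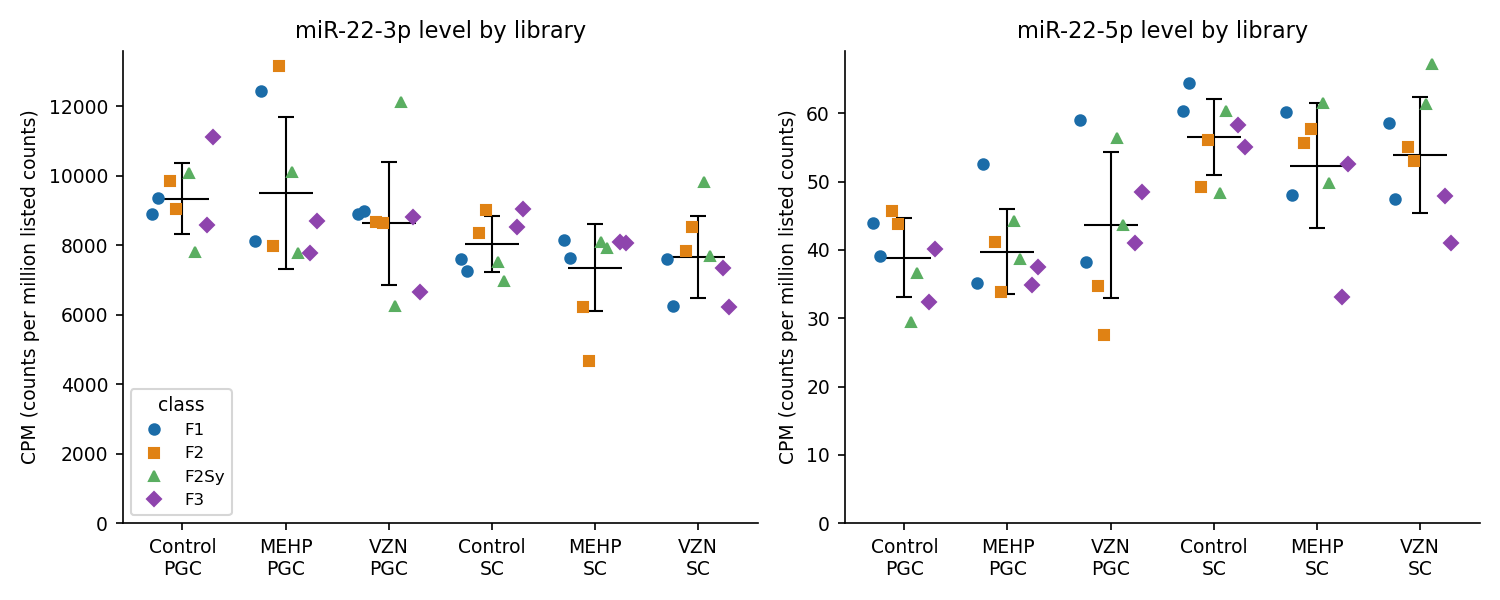
CPM of miR-22-3p (left) and miR-22-5p (right) in each of the 48 libraries by exposure and fraction, with colour and marker for the generation class; horizontal bars are means and whiskers 1 SD over 8 libraries. The 3p arm lies between 4672 and 13180 CPM with sets that overlap, and the 5p arm is lower in the control PGC libraries than in every control SC library. Of the 251 miRNAs tested, 71.3% had control fractions that did not overlap.

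Replicate libraries of a group differed more in PGC than in SC for the 3p arm. The median absolute log2 difference between the 2 libraries of a group was 0.37 in PGC and 0.11 in SC for the level of miR-22-3p, and 0.30 and 0.21 for that of miR-22-5p. The widest 3p gap was in VZN PGC F2Sy, where the libraries had 6242 and 12139 CPM, and the next in MEHP PGC F2, with 7981 and 13180 CPM. Both are PGC groups, and PGC libraries held fewer counts in general; the part of depth in these gaps was not tested.

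Germ cells and somatic cells of control embryos were compared first, to ask how the 2 arms are distributed between the cell types of the ovary. In controls miR-22-5p was lower in PGC than in SC, by a log2 fold change of -0.44 ± 0.14 (SE; adjusted p = 0.00497 by edgeR's quasi-likelihood test with Benjamini-Hochberg adjustment; 8 against 8 libraries). The difference kept its sign and its call under all 8 alternatives tried, with log2 values of -0.60 to -0.38. miR-22-3p went the other way, with 0.33 ± 0.14 (adjusted p = 0.0275), a 1.26-fold higher level in PGC, although its groups overlapped. Of the 251 miRNAs tested, 84.1% passed in this comparison, 41.8% as higher and 42.2% as lower in PGC, and 71.3% had groups that did not overlap, so that passing here is usual and does not set miR-22 apart. Both changes are small beside the median absolute log2 fold change of 1.96 over all miRNAs tested.

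The call for miR-22-3p in controls was lost under 3 of the 8 alternatives and 2 of the 16 fits that leave out a library. With library size alone the median of all tested miRNAs moved by -0.11 on the log2 scale and the log2 fold change of miR-22-3p was 0.22 (adjusted p = 0.135). With blank cells of the table filled by 0 or by the smallest listed count the median moved by -0.16 and -0.15, and the log2 fold change was 0.16 and 0.17 (adjusted p = 0.197 and 0.184). Without library 1 of control PGC F2Sy it was 0.27 (adjusted p = 0.0768) and without library 2 of control SC F1 0.31 (adjusted p = 0.0542). With TMM scaling the median of all tested miRNAs was 0.09.

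In the lineage exposed to MEHP miR-22-3p was higher in PGC, by a log2 fold change of 0.48 ± 0.14 (edgeR, adjusted p = 0.00193), and this passed under all 8 alternatives, with 0.30 to 0.54. The libraries of the fractions overlapped. For miR-22-5p the log2 fold change was -0.30 ± 0.14 with an adjusted p of 0.0501, just outside the threshold of 0.05. It passed under 6 of the 8 alternatives, DESeq2 among them (-0.29, adjusted p = 0.0313), and without library 1 of MEHP SC F3 (-0.32, adjusted p = 0.0296). It also passed without library 2 of MEHP PGC F1 (-0.34, adjusted p = 0.0219), library 1 of MEHP PGC F2 (-0.35, adjusted p = 0.0299) or library 2 of MEHP PGC F3 (-0.33, adjusted p = 0.0460). The value closest to 0 was -0.17 without library 2 of MEHP SC F3 (adjusted p = 0.228), and among the alternatives -0.23 with only the compared groups in the fit (adjusted p = 0.162). In this comparison 87.3% of the 251 miRNAs passed and 66.9% had groups without overlap.

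In the VZN lineage neither arm passed. The log2 fold change from SC to PGC was 0.21 ± 0.14 for miR-22-3p (edgeR, adjusted p = 0.151) and -0.27 ± 0.14 for miR-22-5p (adjusted p = 0.0821), against 81.3% of miRNAs that passed and 63.7% without overlap. Among the alternatives the 5p arm passed by edgeR with library size alone (-0.32, adjusted p = 0.0203). It also passed with blanks at the smallest listed count (-0.33, adjusted p = 0.0225). For the 3p arm the alternatives ran from 0.081, with blanks as 0 (adjusted p = 0.598), to 0.27. DESeq2 gave 0.27 (adjusted p = 0.0430), and it also passed without library 1 of VZN PGC F2Sy (0.35, adjusted p = 0.0127) or without library 1 of VZN SC F1 (0.32, adjusted p = 0.0442). The 5p arm passed without library 1 of VZN PGC F1 (-0.32, adjusted p = 0.0317). Its value was -0.09 without library 2 of VZN PGC F2Sy (adjusted p = 0.554).

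Whether the difference between fractions itself changed with exposure was tested in 1 model over all 48 libraries. Taking the fraction difference with MEHP minus that in controls, the log2 value was 0.15 (95% interval -0.24 to 0.54) for miR-22-3p and 0.15 (-0.26 to 0.55) for miR-22-5p. With VZN it was -0.12 (-0.51 to 0.27) and 0.18 (-0.23 to 0.58). None passed (adjusted p of at least 0.961 by edgeR), nor did any of the 251 miRNAs (0% by edgeR and by DESeq2, with 2 and 3 at an unadjusted p under 0.05). For VZN edgeR called 4 miRNAs without library 2 of VZN PGC F2Sy and 5 without both libraries that stand apart, neither arm of miR-22 among them. For miR-22 the 3 exposures are thus not shown to differ in this respect.

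The ratio of the 2 arms within a library does not depend on scaling between libraries. The 5p count, however, lay nearer to the smallest listed count of a library in PGC than in SC. In control PGC libraries miR-22-5p had 176 to 314 counts, beside smallest listed counts of 120 to 150. In control SC libraries it had 484 to 626 counts, beside 124 to 143. The part of this in the ratio was not tested. In control PGC the log2 ratio of 3p to 5p counts ran from 7.66 to 8.42 with a median of 7.83. In control SC it ran from 6.82 to 7.40 with a median of 7.24. Every control PGC library therefore had a higher ratio than every control SC library.

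The mean log2 arm ratio was 7.92 ± 0.26 in control PGC and 7.15 ± 0.24 in control SC (SD, n = 8 each), a difference of 0.76 or 1.70-fold. The exact two-sided permutation test within generation classes gave p = 0.00154, the smallest that its arrangements can give. After Benjamini-Hochberg adjustment over 7 comparisons it was 0.0108. With libraries paired by replicate number, exact permutation of signs gave 0.00781, also the smallest it can give, and 0.0547 after adjustment. All 4 classes had the higher ratio in PGC, by 0.89 in F1, 0.35 in F2, 1.01 in F2Sy and 0.81 in F3. This shared direction, and the lack of overlap in any class, follow from the full separation of the control libraries. Leaving out each library in turn kept the difference between 0.69 and 0.80. On the linear scale the 3p arm outnumbered the 5p arm 245 ± 47.9 to 1 in PGC and 144 ± 22.7 to 1 in SC.

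With MEHP the log2 ratio ran from 7.60 to 8.60 in PGC, with a mean of 7.89 ± 0.31, and from 6.34 to 7.94 in SC, with a mean of 7.14 ± 0.46. The difference of 0.75 passed (exact permutation test, p = 0.00463, adjusted over 7 comparisons 0.0162), though the sets overlapped through library 1 of MEHP SC F3 at 7.94. Without that library the difference was 0.86. With all libraries paired by replicate number the adjusted p was 0.0547 (exact permutation of signs). With VZN the ratio ran from 6.79 to 8.30 in PGC, with a mean of 7.64 ± 0.54, and from 6.84 to 7.33 in SC, with a mean of 7.15 ± 0.17.

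The VZN difference of 0.49 did not pass after adjustment (exact permutation test, p = 0.0370, adjusted 0.0864), and it did without library 1 of VZN PGC F2Sy (0.61, adjusted 0.0180) or library 2 of VZN PGC F3 (0.57, adjusted 0.0468). Without library 2 of VZN PGC F2Sy, the library that stands apart, it was 0.42 and did not pass. Library 1 of VZN PGC F2Sy had a ratio of 6.79 and library 2 of VZN PGC F3 one of 7.10. All 4 classes had the higher mean ratio in PGC under both disruptors. The plot of arm ratios by library shows the separation in controls and the wider spread of VZN PGC.

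**Figure D2:**
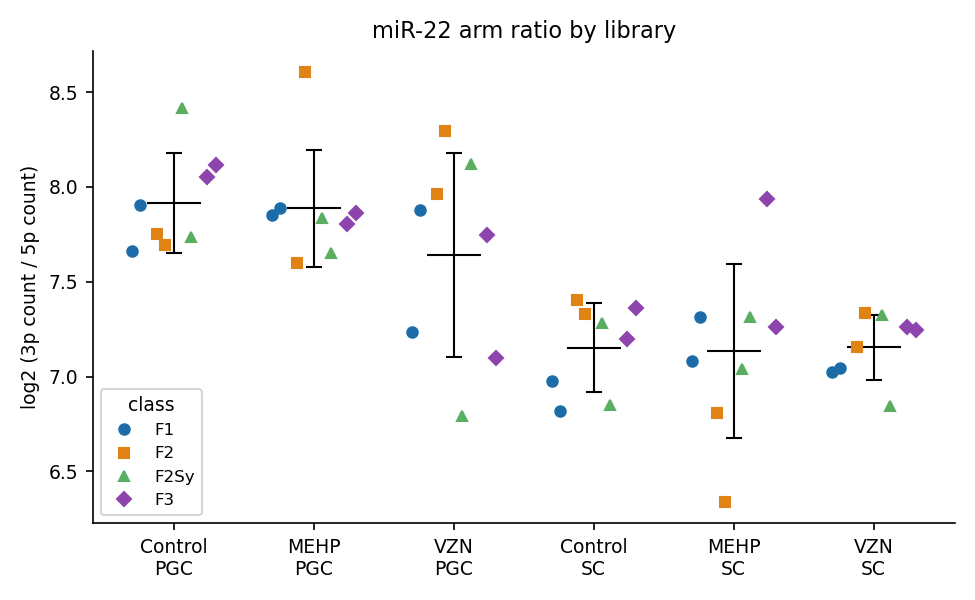
log2 ratio of the 3p to the 5p count of miR-22 in each of the 48 libraries by exposure and fraction, with colour and marker for the class; bars are means and whiskers 1 SD over 8 libraries. Control PGC libraries lie between 7.66 and 8.42 and control SC libraries between 6.82 and 7.40.

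The same ratio could be formed for 30 hairpins with both arms listed in every library. In controls 3 of the 30 (10%) had PGC and SC ratios that did not overlap, namely miR-22, miR-25 and miR-154, and 9 (30%) passed the exact permutation test after adjustment over the 30. miR-22 was among them (adjusted p = 0.00926) and ranked 5 by size, against a median absolute difference of 0.33. Under MEHP 2 (6.67%) did not overlap and 7 (23.3%) passed; miR-22 overlapped but passed (adjusted p = 0.0347) and ranked 6. Under VZN 2 (6.67%) did not overlap and 5 (16.7%) passed, while miR-22 did not (adjusted p = 0.123) and ranked 10.

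**Figure D3:**
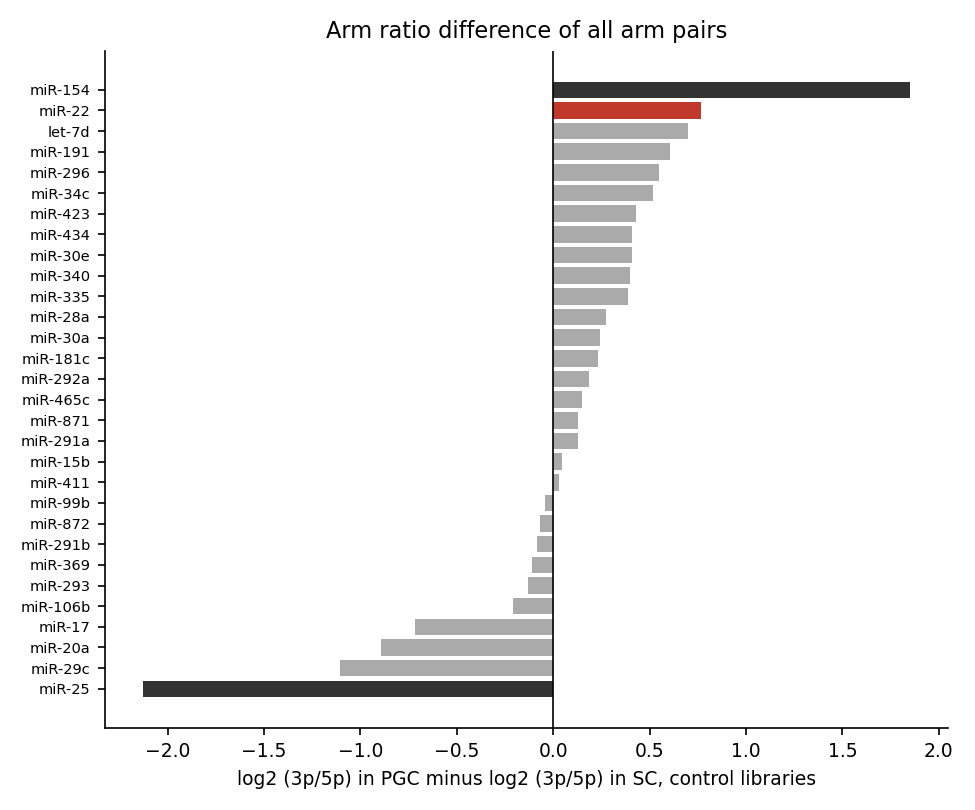
Difference of the mean log2 3p to 5p ratio, PGC minus SC, for the 30 hairpins with both arms listed in all 48 libraries, control libraries only (n = 8 per fraction). The red bar is miR-22 at 0.76, black bars are miR-154 at 1.85 and miR-25 at -2.13, whose fractions do not overlap either, and grey bars are hairpins whose fractions overlap.

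Exposure was examined next, to ask whether MEHP or VZN in the ancestral female altered miR-22 in either cell type. Averaged over the 4 classes, neither arm passed in any comparison with control. In PGC the log2 fold change of miR-22-3p was 0.03 (95% interval -0.29 to 0.35) with MEHP and -0.15 (-0.47 to 0.17) with VZN, and that of miR-22-5p was 0.05 (-0.25 to 0.35) and 0.13 (-0.18 to 0.43). In SC the values were -0.14 (-0.33 to 0.06) and -0.05 (-0.25 to 0.14) for the 3p arm and -0.11 (-0.36 to 0.14) and -0.06 (-0.31 to 0.20) for the 5p arm. The narrowest of these intervals, in SC, still reach -0.33 for miR-22-3p.

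edgeR called 0% of the 303 miRNAs tested in PGC and 0% of the 355 tested in SC in these mean comparisons, with 5 to 10 miRNAs at an unadjusted p under 0.05, and DESeq2 called none. Without library 2 of VZN PGC F2Sy edgeR called 7 miRNAs for VZN in PGC, and without library 2 of MEHP SC F3 it called 5 for MEHP in SC, neither arm of miR-22 among them. MEHP set against VZN directly gave 0.18 (-0.13 to 0.50) for miR-22-3p and -0.08 (-0.38 to 0.23) for miR-22-5p in PGC, and -0.08 (-0.28 to 0.11) and -0.05 (-0.31 to 0.20) in SC, with 0% called and 13 and 5 miRNAs at an unadjusted p under 0.05. In this comparison edgeR called 5 miRNAs in PGC without library 2 of VZN PGC F2Sy, 3 without library 1, and 15 in SC without library 2 of MEHP SC F3, again neither arm of miR-22. The arm ratio moved by -0.03 with MEHP and -0.28 with VZN in PGC and by -0.02 and 0.0011 in SC. In these 4 comparisons the exact permutation tests gave adjusted p values of 0.456 or more.

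Within single classes, 16 comparisons of 2 exposed with 2 control libraries were made for each arm, and neither arm passed in any of them by edgeR. The log2 fold changes ran from -0.66 to 0.22 for miR-22-3p, negative in 12 of 16, and from -0.47 to 0.50 for miR-22-5p, negative in 7 of 16. Comparisons of one fraction and class share their control libraries, so these counts are not over independent values. Of all miRNAs, edgeR called 1 of 303 (0.33%) in VZN PGC F2Sy and 0% in the other 15 comparisons, with 0 to 42 at an unadjusted p under 0.05. DESeq2 called 0 to 6 miRNAs per comparison, with calls in 6 of the 16.

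The value farthest from 0 was that of miR-22-3p in MEHP SC F2. The 2 exposed libraries had 6237 and 4672 CPM and the 2 control libraries 8346 and 9025 CPM, so the groups did not overlap, as for 29% of the 355 miRNAs there. The log2 fold change was -0.66 ± 0.19 (edgeR, unadjusted p = 0.00292, adjusted 0.518), and miR-22-3p ranked 2 by p. DESeq2 called it, with -0.69 and an adjusted p of 0.0166, among 2 of the 355 miRNAs that it called there. The 2 tools thus differ on this call, and the other 7 refits gave adjusted p values of 0.294 or more with log2 values of -0.69 to -0.65. Without library 2 of MEHP SC F2 the value was -0.45 (adjusted p = 0.999) and without library 1 it was -0.94 (adjusted p = 0.0898).

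miR-22-5p did not share that difference, with 55.7 and 57.7 CPM in MEHP SC F2 against 49.3 and 56.1 CPM in control SC F2. The log2 arm ratio was accordingly 6.81 and 6.34 in the exposed and 7.40 and 7.33 in the control libraries. The erythroid sum was 14380 and 17450 CPM in the exposed and 11194 and 10873 CPM in the control libraries, and the somatic sum 129371 and 121343 CPM against 122398 and 128277 CPM; their part in the difference was not tested.

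In MEHP SC F2Sy, the class with exposed ancestry on both sides, miR-22-3p had 8094 and 7922 CPM against 7525 and 6975 CPM in controls. This log2 fold change of 0.17 did not pass (edgeR, adjusted p = 0.830). The erythroid sum was 18304 and 86158 CPM in the exposed and 15467 and 8778 CPM in the control libraries. The value of 86158 CPM, in library 2 of MEHP SC F2Sy, was the highest of all libraries, and its part in these values was not tested. The MEHP effect in F2Sy minus that in F2 was 0.83 (95% interval 0.27 to 1.39; edgeR, unadjusted p = 0.00633, adjusted 0.321), and 0.91 by DESeq2 (adjusted p = 0.0259). Of the 355 miRNAs edgeR called 0 for this difference, with 22 at an unadjusted p under 0.05. The number that DESeq2 called for it is not given here. The joint test of a MEHP effect that differs between the 4 classes in SC gave an unadjusted p of 0.0332 and an adjusted p of 0.456 for miR-22-3p. For miR-22-5p in PGC the VZN effect in F2Sy minus that in F2 was 0.97 (0.11 to 1.83; unadjusted p = 0.0297, adjusted 0.994). None of the joint tests of MEHP, VZN or control classes called any miRNA (0%), with 2 to 33 at an unadjusted p under 0.05.

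In F3, the class farthest from the exposure, miR-22-3p had 8093 and 8062 CPM in MEHP SC and 8539 and 9055 CPM in control SC. VZN SC F3 had 7349 and 6214 CPM, a log2 fold change of -0.29 that did not pass (edgeR, adjusted p = 0.906). miR-22-5p had 33.0 and 52.6 CPM in MEHP SC F3 against 58.2 and 55.1 CPM in controls. Its log2 fold change of -0.33 became -0.77 without library 2 of MEHP SC F3. It was 0.01 without library 1, the library of low somatic sum, so the value rests on that 1 library. The plot of exposure effects shows the intervals of all classes.

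**Figure D4:**
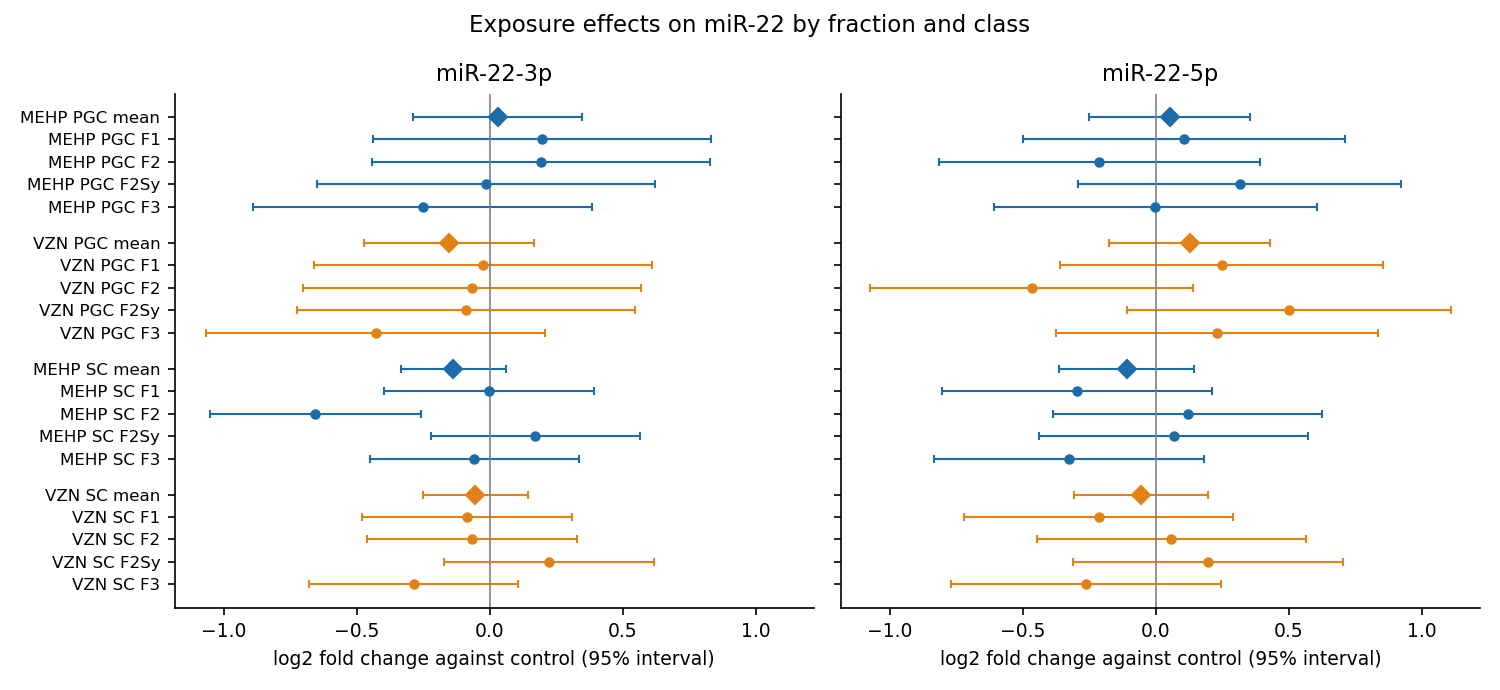
log2 fold change of miR-22-3p (left) and miR-22-5p (right) against control with 95% intervals from edgeR, as a mean over the classes (diamonds) and within each class (circles), MEHP in blue and VZN in orange. The interval of miR-22-3p in MEHP SC F2, -1.05 to -0.26, is the one within a class that leaves out 0, and it does not account for the number of miRNAs tested.

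Other miRNAs known to act on the same transcripts were set beside miR-22 in the comparison of control fractions. Of 11 other miRNAs known from human breast cancer cells to target estrogen receptor alpha, all in the table, 6 were listed in every library and tested: 4 were higher in PGC, 1 was lower and 1 did not pass, against 41.8% higher and 42.2% lower over all. With blanks filled, where all 563 miRNAs were tested, 7 of the 11 were higher and 3 lower, beside 170 higher and 237 lower of the 563 with blanks as 0 and 269 and 220 with blanks at the smallest listed count. The median log2 fold change of the 6 was 0.60 and that of all 251 miRNAs 0.09. miR-20b-5p, of the X-linked miR-106a-363 cluster, was higher by 4.99 ± 0.22 (edgeR, adjusted p = 2.14e-18), with 5627 ± 649 CPM in PGC and 199 ± 84.4 CPM in SC. miR-19b-3p and miR-18a-5p, of the miR-17-92 cluster, were higher by 0.60 ± 0.14 and 0.61 ± 0.14 (adjusted p = 2.86e-04 and 2.38e-04). miR-222-3p, known in human cells to repress the KIT transcript, had 0.18 ± 0.15 (adjusted p = 0.264).

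Of 9 other miRNAs known to target Tet transcripts, 8 were tested: 3 were higher in PGC, 2 were lower and 3 did not pass, with a median log2 fold change of 0.21. miR-26a-5p was lower in PGC by a log2 fold change of -0.62 ± 0.09 (edgeR, adjusted p = 3.08e-07) and miR-125b-5p, also a somatic marker, by -3.93 ± 0.39 (adjusted p = 1.02e-10). miR-26b-5p had -0.29 ± 0.16 (adjusted p = 0.103) and miR-7a-5p 0.11 ± 0.29 (adjusted p = 0.706). Averaged over classes, no tested member of the 2 lists passed against control with either disruptor in either fraction, as for all miRNAs (0%).

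The miRNAs whose log2 CPM followed miR-22-3p most closely differed by fraction. Over the 24 PGC libraries they were miR-467d-5p (Pearson r = 0.69), miR-467b-5p (0.69) and miR-466p-5p (0.67) among 262 candidates whose median r was 0.0054. Over the 24 SC libraries they were miR-700-3p (0.84), miR-1251-5p (0.82) and miR-378a-3p (0.79) among 281. Without the 2 libraries farthest from the median of miR-22-3p, r was 0.66, 0.59 and 0.65 in PGC and 0.69, 0.67 and 0.71 in SC. Over all 48 libraries, where the difference between fractions enters, miR-33-5p (0.72), miR-467a-5p (0.69) and miR-27a-3p (0.67) came first. The libraries share exposures, classes and scaling, so these values are descriptions of likeness.

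For miR-22-5p the closest were miR-7a-1-3p (r = 0.54), miR-25-5p (0.53) and miR-148a-3p (0.50) in PGC and miR-27b-3p (0.79), miR-19b-3p (0.78) and miR-497a-5p (0.75) in SC. Without the 2 libraries farthest from the median of miR-22-5p, r was 0.45, 0.50 and 0.50 in PGC and 0.54, 0.43 and 0.71 in SC. In SC these 2 include library 1 of MEHP SC F3, which stands apart. No miRNA was named for both arms within a fraction. The 2 arms of miR-22 themselves hardly moved together, with r = -0.09 in PGC and 0.10 in SC (n = 24 each). Of 12 relations between the arms or their ratio and the germ cell or erythroid sums within a fraction, none passed. The strongest Pearson value was that of miR-22-5p with the germ cell sum in SC (r = -0.35, permutation p = 0.0996, adjusted 0.706; rho = -0.23, permutation p = 0.274, adjusted 0.657), and r was -0.08 without the 2 libraries farthest from the median.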

How the data were processed

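Small RNA under 100 bases was sequenced from 48 libraries in 24 groups of 2. The authors deposited whole-number read counts per mature miRNA, canonical form and isomiRs together, per the file headers; Bowtie 1.3.1 and build mm39 are named in the submitters' processing notes. How reads were assigned and counted is not stated there. Of 27024 cells 7089 (26.2%) are blank and none is 0, so totals are of listed counts only, and each fit used miRNAs listed in all of its libraries: 251 for 48 libraries, 303 for PGC and 355 for SC.

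The test was edgeR's (version 4.0.16, R 4.3.3) robust quasi-likelihood fit after filterByExpr and TMM scaling (two-sided, Benjamini-Hochberg over all miRNAs of a comparison, threshold 0.05), with 24 groups in 1 fit for fractions and 12 groups of a fraction for exposures. CPM are counts per 1000000 listed counts. Arm ratios were tested by exact permutation within classes. The scripts were tested on simulated data. Alternatives were DESeq2 1.42.0, RLE factors, library size alone, blanks filled, other sets of libraries, a replicate block and each library left out. Those for class differences, for the lists and for arm ratios without both libraries that stand apart were added after seeing the data.

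The members and lists were chosen with earlier results of these data known. Genes named are the 2 arms, up to 4 tested list members of highest mean CPM, and for likeness the 3 highest Pearson r among miRNAs listed in all libraries with a mean of at least 100 CPM; miR-25 and miR-154 were named after their values were seen. Sequences are from RefSeq; 478 of the 563 names matched that table. The design had assumed a table without blanks.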

Additional observations from a re-analysis of the deposited data

Results flagged for a closer look

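2 of the 18 sets of 8 libraries examined (2 arms and their ratio in 6 sets) held a library that stood apart from the rest by Dixon's criterion, which chance alone gives in about 1 of 20 sets. The level of miR-22-3p in library 2 of VZN PGC F2Sy was 12139 CPM, with the next of the VZN PGC libraries at 8994 CPM and the lowest at 6242 CPM. The log2 arm ratio in library 2 of MEHP PGC F2 was 8.60, with the next of the MEHP PGC libraries at 7.89.

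The arm ratio of exposed minus control libraries also had opposite signs in different classes, a difference that was not tested for the ratio. Of the 16 comparisons of 2 exposed with 2 control libraries, 6 had no overlap in this ratio. The others besides those named next were MEHP PGC F3 (-0.25) and VZN SC F1 (0.14). With 2 against 2 libraries a lack of overlap is frequent by chance, and its share over the other hairpins was not computed. For CPM that share was 29% of 355 miRNAs in MEHP SC F2 against control. The 6 are thus not shown to exceed chance. With VZN in PGC both F2 libraries were above both controls (mean difference 0.41 on the log2 scale) and both F3 libraries below them (-0.66). With MEHP in SC both F1 libraries were above both controls (0.30) and both F2 libraries below them (-0.79).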

How the results depend on the processing

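Some log2 fold changes between fractions changed their call. That of miR-22-3p in controls no longer passed with library size alone (0.22), blanks as 0 (0.16) or blanks at the smallest listed count (0.17). That of miR-22-5p with MEHP passed with RLE factors (-0.29), library size alone (-0.39), blanks as 0 (-0.47), blanks at the smallest count (-0.45), DESeq2 (-0.29) and without both libraries that stand apart (-0.34). With VZN, miR-22-5p passed with library size alone (-0.32) and blanks at the smallest count (-0.33), and miR-22-3p with DESeq2 (0.27). With blanks as 0 or at the smallest count, where all 563 miRNAs are tested, 407 and 489 miRNAs were called in controls, 404 and 497 with MEHP and 389 and 482 with VZN (211, 219 and 204 otherwise), and 7 estrogen receptor regulators were higher and 3 lower under both. The share of calls that were higher in PGC was 49.8% in controls, 41.8% with blanks as 0 and 55.0% at the smallest count. DESeq2 called the MEHP effect on miR-22-3p in SC F2Sy minus F2 (0.91). Elsewhere the cause was not tested.

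The replicate numbers showed no pairing of the libraries by correlation of deviations, with a median of 0.04 between PGC and 0.07 between SC groups. Between PGC and SC of the same exposure and class the median was -0.0027, with values from -0.46 to 0.53 over 12 pairs of groups. Such correlations cannot show whether 2 libraries came from the same lot of gonads. With the replicate block the arm ratio differences of 0.76 in controls and 0.75 with MEHP had an adjusted p of 0.0547 (exact permutation of the signs of 8 pair differences, whose smallest possible p, 0.00781, was reached in controls). For the levels of the arms the block was a term for replicate number shared by all libraries of the edgeR fit, and it changed no call. Such a term does not pair the PGC and SC libraries of a group, so pairing was not tested for the levels. The alternative for blank 5p cells had no case, since none is blank.

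The following values changed sign and passed in neither the original nor the changed setting. For the MEHP effect on miR-22-3p they were 0.0023 (RLE, DESeq2) and 0.053 (blanks at the smallest count) in PGC F2Sy, 0.088 (library size alone), 0.029 (blanks at the smallest count) and 3.0e-05 (replicate block) in SC F1, and 0.0069 (RLE, DESeq2) and 0.025 (blanks at the smallest count) in SC F3. For the VZN effect on it they were 0.038 in PGC F2Sy (library size alone), 0.0084 in PGC F1 (without both libraries that stand apart) and 0.17 in PGC F2Sy minus F2 (library size alone). For the MEHP effect on miR-22-5p they were, in PGC F3, 0.035 (RLE, DESeq2), 0.055 and 0.030 (blanks as 0 and smallest), 0.062 (without both libraries that stand apart, and with only the groups compared); 0.011 in SC F3 and 0.031 for MEHP against VZN in SC without both; and 0.028 and 0.029 in SC F2Sy minus F2 (RLE, DESeq2).

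Leaving out each library in turn gave the following ranges where a sign or call changed. Between fractions miR-22-3p ran from 0.27 to 0.42 in controls and 0.17 to 0.35 with VZN, miR-22-5p from -0.35 to -0.17 with MEHP and -0.32 to -0.091 with VZN and the VZN arm ratio from 0.39 to 0.61. The arm ratio ran from -0.13 to 0.042 for MEHP in PGC, -0.13 to 0.098 for MEHP in SC and -0.047 to 0.046 for VZN in SC. Mean effects ran from -0.061 to 0.10 (3p, MEHP, PGC), -0.030 to 0.12 (5p, MEHP, PGC), -0.16 to 0.042 (5p, MEHP against VZN, PGC) and -0.16 to 0.031 (the same in SC). Within PGC classes miR-22-3p ran from -0.17 to 0.48 (MEHP F1), -0.17 to 0.45 (MEHP F2), -0.18 to 0.24 (MEHP F2Sy), -0.079 to 0.069 (VZN F1), -0.13 to 0.0015 (VZN F2), -0.60 to 0.21 (VZN F2Sy), and for F2Sy minus F2 from -0.41 to 0.16 with MEHP and -0.49 to 0.29 with VZN. miR-22-5p ran from -0.25 to 0.37 (MEHP F1), -0.18 to 0.62 (VZN F1) and -0.11 to 0.19 (MEHP F3). Within SC classes miR-22-3p ran from -0.099 to 0.098 (MEHP F1) and -0.29 to 0.091 (VZN F1), and miR-22-5p from -0.011 to 0.12 (VZN F2), -0.062 to 0.18 (MEHP F2Sy), -0.77 to 0.011 (MEHP F3) and -0.18 to 0.065 (MEHP F2Sy minus F2). With 1 library left in a group, it is assumed to vary like the others. Over all miRNAs, calls for VZN in PGC went from 0 to 7 without library 2 of VZN PGC F2Sy (within F2Sy from 1 to 16, and to 19 without library 1), and for MEHP in SC F3 from 0 to 81 and in SC from 0 to 5 without library 2 of MEHP SC F3.

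With 128 to 669 counts, counting error alone limits single miR-22-5p values to within 7.65 to 17.7%.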
